A study of Homo sapiens with 18 samples.

Results

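The TEAD transcription factors and their cofactors were followed as 10 genes. These were the DNA-binding factors TEAD1, TEAD2, TEAD3 and TEAD4, the coactivators YAP1 and WWTR1 (the gene of TAZ), and the vestigial-like cofactors VGLL1, VGLL2, VGLL3 and VGLL4. They were taken by symbol, as 10 of the 43236 rows of the count table, and all 10 were among the 16291 genes that passed the filter on low counts. The lowest count of any of them in any library was 40. Messenger RNA was sequenced from NCI-H1693, a cell line of human non-small cell lung cancer described in the labels as SMARCA4-deficient. The groups were 50 nM PRT3789 for 6, 48 or 72 h and DMSO, the vehicle, for the same times, with 3 libraries in each of the 6 groups. PRT3789 is a compound that directs the SMARCA2 protein to degradation. SMARCA2 and SMARCA4 are the alternative ATPase motors of the SWI/SNF chromatin remodelling complex. Every group shares the single cell line and its SMARCA4 deficiency, and the labels do not say whether the libraries of a group came from separate cultures, so a p measures the spread between these libraries, which may be technical.

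Library totals ran from 23154484 to 31094797 counts. Of the 5 epithelial markers all were detected in every group, and their summed level was 4660 to 4910 CPM (counts per 1000000, with TMM-scaled totals) with PRT3789 and 10200 to 11000 CPM with DMSO at 48 h, and 4120 to 4330 CPM with PRT3789 and 9150 to 9900 CPM with DMSO at 72 h. KRT8 and KRT18, keratins of simple epithelia, make up most of this difference. At 72 h KRT8 had 1758 to 1878 CPM with PRT3789 and 4460 to 4884 CPM with DMSO, whereas EPCAM, an adhesion molecule, had 561 to 572 CPM with PRT3789 and 566 to 609 CPM with DMSO. KRT19 overlapped between the groups at that time, with 329 to 336 CPM with PRT3789 and 297 to 348 CPM with DMSO. CDH1, the fifth marker, was lower without overlap at 72 h, with 159 to 171 CPM with PRT3789 and 319 to 346 CPM with DMSO. At 48 h EPCAM had 559 to 614 CPM with PRT3789 and 668 to 783 CPM with DMSO. KRT19 then had 323 to 329 CPM with PRT3789 and 363 to 378 CPM with DMSO, so neither overlapped at 48 h. The 5 blood markers summed to at most 1.3 CPM, the 5 endothelial markers to at most 3.84 CPM and the 5 fibroblast markers to 77.5 to 146 CPM, and the part of these shifts in the results below was not tested. Since the target is a protein, its transcript does not check the labels. SMARCA2 averaged 34.8 ± 2.35 CPM with PRT3789 and 47.2 ± 2.49 CPM with DMSO at 72 h (SD, n = 3 each; log2 fold change -0.44 ± 0.10 SE, adjusted p = 0.00108, edgeR quasi-likelihood test).

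TEAD proteins sit on DNA at their own motif but activate little without a partner. YAP and TAZ are such partners; when the Hippo kinases STK3, STK4, LATS1 and LATS2 are active, YAP and TAZ are phosphorylated, held in the cytoplasm and degraded, and when the kinases are quiet they enter the nucleus and switch on TEAD targets such as CCN2. The VGLL proteins carry a short TEAD-binding motif and share the surface of TEAD with YAP and TAZ. VGLL4 is known as a repressor of YAP and TEAD activity, VGLL2 as a cofactor of muscle differentiation, and VGLL1 as a TEAD cofactor of placental and some epithelial cells. The RNA data report transcript levels of these genes, not the location or activity of their proteins.

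Promoter sequence is shown for the pair of genes that moved most, VGLL2 and VGLL1, and for YAP1, the other gene with a TEAD motif in its window. Each line gives the 250 bases before the annotated start, 5′ to 3′ on the gene's own strand (RefSeq, GRCh38.p14), and capitals mark a match to the TEAD motif, GGAATG on either strand. The windows lie at chr6:117265308-117265557 (VGLL2), chrX:136531965-136532214 (VGLL1) and chr11:102110197-102110446 (YAP1), all on the plus strand.
VGLL2: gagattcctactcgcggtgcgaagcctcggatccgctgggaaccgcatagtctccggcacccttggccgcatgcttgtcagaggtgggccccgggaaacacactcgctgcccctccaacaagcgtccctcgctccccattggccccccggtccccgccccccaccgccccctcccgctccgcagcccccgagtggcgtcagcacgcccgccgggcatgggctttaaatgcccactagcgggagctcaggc
VGLL1: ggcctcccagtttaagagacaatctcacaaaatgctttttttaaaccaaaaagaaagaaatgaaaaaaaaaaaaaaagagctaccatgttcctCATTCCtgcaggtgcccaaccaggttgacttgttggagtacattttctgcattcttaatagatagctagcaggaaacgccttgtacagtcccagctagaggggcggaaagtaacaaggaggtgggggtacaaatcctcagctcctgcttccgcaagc
YAP1: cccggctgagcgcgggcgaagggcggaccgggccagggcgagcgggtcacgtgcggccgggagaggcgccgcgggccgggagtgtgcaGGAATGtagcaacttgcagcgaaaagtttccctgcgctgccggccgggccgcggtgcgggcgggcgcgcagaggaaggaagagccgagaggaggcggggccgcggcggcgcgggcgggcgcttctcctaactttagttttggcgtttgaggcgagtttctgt
Of the 10 genes, 8 had a promoter in the RefSeq table, with 14 starts in all. The TEAD motif was found in 2 of these 14 windows, 162 bases before the start of YAP1 and 157 bases before that of VGLL1, where it reads as the reverse complement CATTCC. The VGLL2 window holds no such match. By comparison, 11.9% of 35116 promoter windows of the same length held the motif. The AP-1 motif TGANTCA, searched on both strands, was in 0 of the 14 windows and in 6.57% of all windows. A match describes letters and not a bound site.

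After 48 and 72 h in PRT3789 the cofactors moved most, and in opposite directions: VGLL2 was 8.85-fold and 10.6-fold higher than in DMSO, and VGLL1 was 2.57-fold and 2.72-fold lower. All 4 TEAD genes, YAP1 and VGLL4 were 1.24- to 1.60-fold higher at both times, and WWTR1 was 1.45-fold lower at 72 h. A gene was called at an adjusted p under 0.05 in the edgeR quasi-likelihood test over all 16291 genes. At 48 h, 7 of the 10 genes were called higher and 1 lower, where 21.2% of all tested genes were called higher and 20.9% lower (42.1% either way). At 72 h, 7 were called higher and 2 lower, against 21.3% higher and 22% lower over all tested genes (43.4% either way). At 6 h, 2 were higher (VGLL2 and TEAD4) and 1 lower (VGLL1), against a background of 1.28% higher and 3.04% lower (4.33% either way). The median log2 fold change of the 10 genes was 0.04 at 6 h, 0.44 at 48 h and 0.33 at 72 h, where the median over all tested genes was -0.01, 0.01 and 0.01. The CPM of the groups lay apart without overlap for 3 of the 10 genes at 6 h, 9 at 48 h and 9 at 72 h, as they did for 14.7%, 56.2% and 61.9% of all tested genes. In bulk RNA, a change in the share of cells that express a gene and a change in the RNA per cell cannot be told apart.

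**Figure D1:**
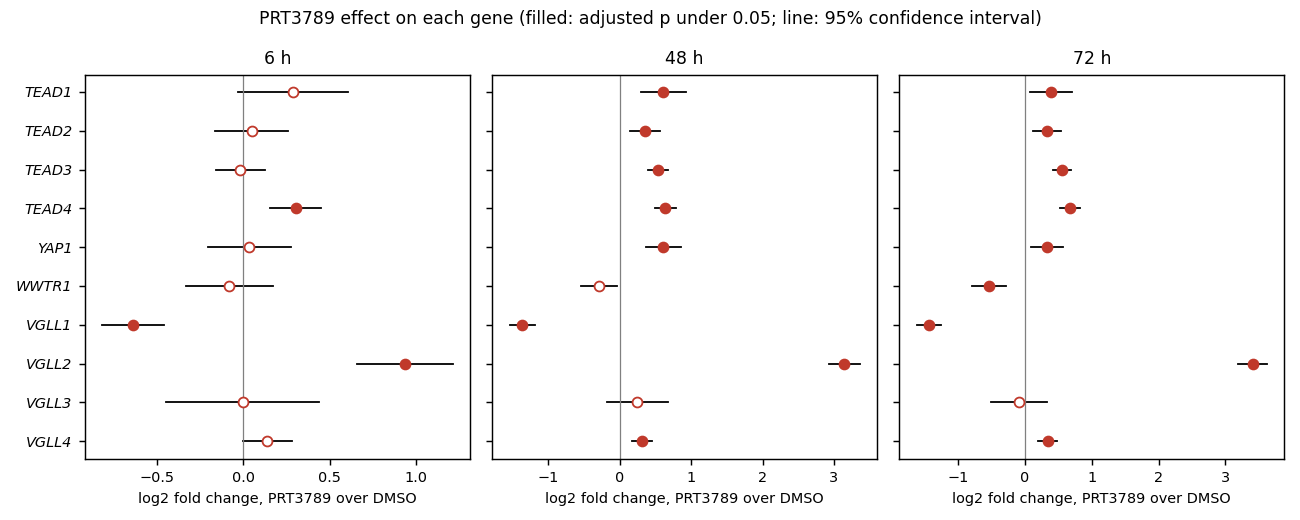
Log2 fold change of PRT3789 over DMSO for each of the 10 genes at 6, 48 and 72 h, with the 95% confidence interval; filled points have an adjusted p under 0.05 (edgeR quasi-likelihood test) and the horizontal scales differ. At 48 h VGLL2 lies at 3.15 and VGLL1 at -1.36, with the TEAD genes and YAP1 between 0.35 and 0.63.

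Among the DNA-binding factors, TEAD4 was the gene whose groups lay apart at all 3 times. TEAD4 had 55.9, 58.2 and 55.1 CPM with PRT3789 and 43.9, 47.8 and 45.4 CPM with DMSO at 6 h. Its values were 73.1, 65.7 and 64.2 CPM with PRT3789 against 41.6, 43.9 and 45.3 CPM with DMSO at 48 h. At 72 h they were 77.0, 77.2 and 84.2 CPM with PRT3789 against 51.6, 46.5 and 51.2 CPM with DMSO. Every PRT3789 library was thus above every DMSO library of the same time. The log2 fold changes were 0.30 ± 0.07, 0.63 ± 0.07 and 0.68 ± 0.07 (SE), with adjusted p of 0.0157, 9.5e-07 and 3.54e-07 at 6, 48 and 72 h. The call at 6 h ended when the 6 h libraries were fitted alone (adjusted p = 0.219) and without the second PRT3789 library of 6 h, with adjusted p of 0.000732 to 0.219 over its 28 alternatives.

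TEAD3 was called at 48 and 72 h and not at 6 h. It had 61.1, 65.6 and 57.7 CPM with PRT3789 and 63.6, 60.8 and 62.2 CPM with DMSO at 6 h, and these groups overlap. At 48 h it had 110.2, 101.9 and 104.9 CPM with PRT3789 against 76.4, 75.6 and 66.4 CPM with DMSO, and at 72 h 107.4, 109.3 and 107.6 CPM with PRT3789 against 70.7, 73.9 and 76.5 CPM with DMSO. The later groups lie well apart, with log2 fold changes of 0.54 ± 0.07 and 0.55 ± 0.07 (SE) and adjusted p of 4.21e-06 and 2.53e-06. Both calls held in all 29 alternatives.

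TEAD1, whose canonical transcript of 9417 bases is among the longest of the 10, varied widely at 6 h: 169.1, 187.0 and 126.4 CPM with PRT3789, against 172.1, 118.2 and 104.3 CPM with DMSO. Those groups overlap, and the log2 fold change of 0.29 ± 0.15 (SE) was not called (adjusted p = 0.415). Without the first DMSO library of 6 h it was 0.55 and called (adjusted p = 0.0092, with 0.0092 to 0.888 over 28 alternatives). The levels were 247.6, 240.9 and 242.0 CPM with PRT3789 against 162.0, 150.1 and 165.9 CPM with DMSO at 48 h, a log2 fold change of 0.61 ± 0.15 (SE, adjusted p = 0.00347). At 72 h they were 277.0, 282.4 and 252.6 CPM with PRT3789 against 189.5, 204.2 and 227.6 CPM with DMSO. The groups of 48 and 72 h do not overlap, but the call at 72 h (0.39 ± 0.15, adjusted p = 0.0468) was lost in 15 of 29 alternatives, with adjusted p of 7.41e-05 to 0.154.

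TEAD2, the lowest of the 4, averaged 12.6 ± 1.10 CPM with PRT3789 and 12.2 ± 0.92 CPM with DMSO at 6 h (SD, n = 3 each, as are the means below). It averaged 14.0 ± 0.94 CPM with PRT3789 and 11 ± 1.1 CPM with DMSO at 48 h, and 13.6 ± 0.68 CPM with PRT3789 and 10.9 ± 0.84 CPM with DMSO at 72 h. These groups do not overlap at 48 and 72 h, with log2 fold changes of 0.35 ± 0.10 and 0.33 ± 0.10 (SE; adjusted p = 0.0084 and 0.0128). Each call rested on a single library in part: without the third PRT3789 library of 48 h the adjusted p was 0.0646 (the highest of 29 alternatives, the lowest 0.00229), and without the third DMSO library of 72 h it was 0.0655 (the highest, the lowest 0.00419).

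To compare levels between genes, CPM was divided by the length of the canonical transcript in kilobases. On that scale the 4 TEAD genes summed to 76.4 ± 5.67 CPM per kb with PRT3789 and 67.1 ± 3.05 CPM per kb with DMSO at 6 h. The sums were 107.2 ± 4.36 CPM per kb with PRT3789 and 71.8 ± 0.92 CPM per kb with DMSO at 48 h, and 117.7 ± 0.82 CPM per kb with PRT3789 and 80.8 ± 3.12 CPM per kb with DMSO at 72 h. The TEAD genes stood in the same order in both groups at 72 h: with PRT3789, TEAD4 made up 39.5 ± 1.95%, TEAD3 30.8 ± 0.22%, TEAD1 24.4 ± 1.47% and TEAD2 5.32 ± 0.27%, and with DMSO TEAD4 made up 36.0 ± 1.79%, TEAD3 30.6 ± 0.84%, TEAD1 27.2 ± 1.68% and TEAD2 6.20 ± 0.68%. TEAD4 thus held the highest share per length in both groups. Undivided, TEAD1 was higher at 72 h, with 270.7 ± 15.87 CPM against 79.5 ± 4.13 CPM for TEAD4 with PRT3789. In DMSO at 72 h TEAD1 had 207.1 ± 19.24 CPM and TEAD4 49.7 ± 2.86 CPM. Shares per length rest on the canonical transcript, and the transcript forms present were not measured. Sums and shares are descriptions of the same libraries and carry no test.

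**Figure D2:**
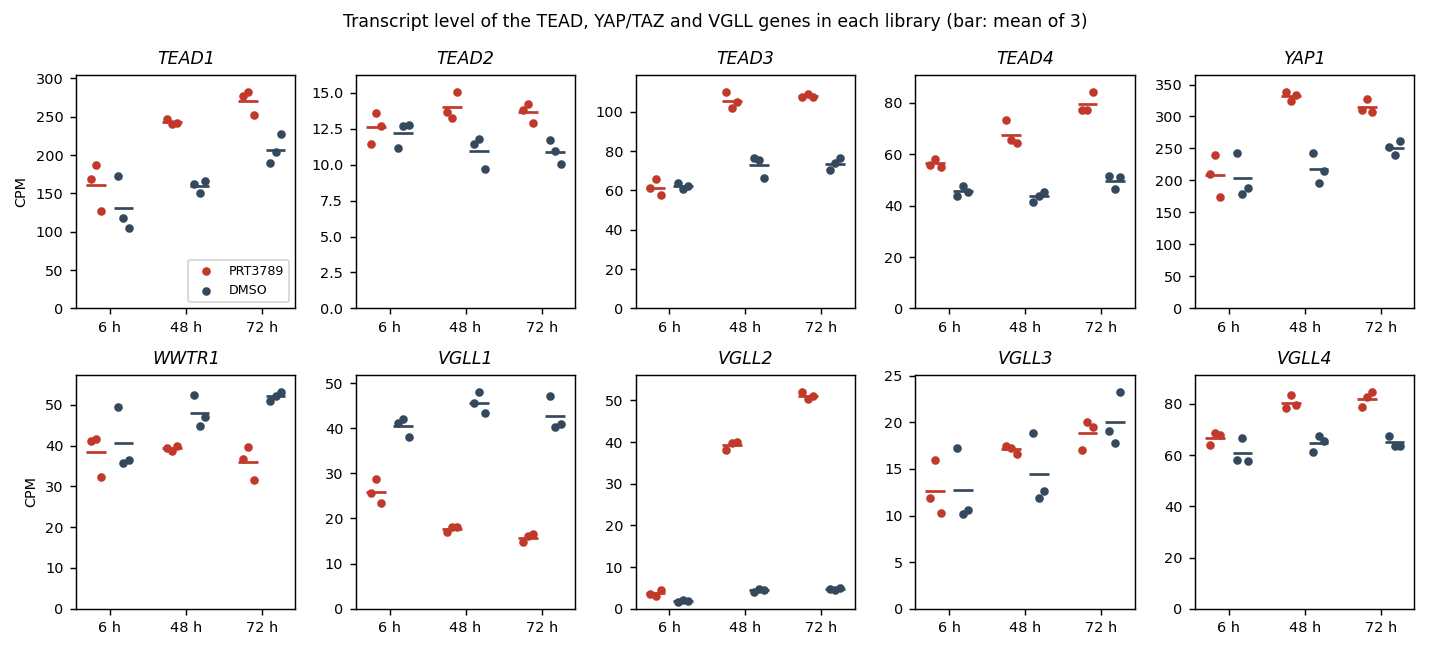
CPM of each of the 10 genes in every library at 6, 48 and 72 h, with PRT3789 to the left of DMSO at each time and a bar at the mean of 3 libraries; vertical axes start at 0 and differ between genes. The PRT3789 libraries of VGLL2 stand at 38.0 CPM or above at 48 and 72 h, and no DMSO library is above 5.02 CPM.

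The coactivators diverged. YAP1 had 338.5, 324.6 and 333.2 CPM with PRT3789 against 242.3, 196.1 and 215.3 CPM with DMSO at 48 h. At 72 h it had 309.8, 327.6 and 307.4 CPM with PRT3789 against 252.6, 239.2 and 262.2 CPM with DMSO. Neither pair of groups overlaps, and the log2 fold changes were 0.61 ± 0.12 (adjusted p = 0.000377) and 0.33 ± 0.11 (SE; adjusted p = 0.0292). The call at 48 h held in all 29 alternatives, while that at 72 h was lost without any single PRT3789 library of 72 h and without the first or second DMSO library of 72 h (adjusted p 7.67e-06 to 0.101 over 29 alternatives). At 6 h the groups overlap, with 210.3, 240.2 and 174.1 CPM with PRT3789 against 242.3, 179.2 and 188.3 CPM with DMSO (0.03 ± 0.12, adjusted p = 0.931).

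WWTR1 went the other way. It had 36.6, 39.7 and 31.4 CPM with PRT3789 against 50.9, 52.2 and 53.1 CPM with DMSO at 72 h, without overlap, a log2 fold change of -0.54 ± 0.12 (SE, adjusted p = 0.0014) that was called in all 29 alternatives. At 48 h it had 39.4, 38.8 and 39.8 CPM with PRT3789 against 52.3, 44.9 and 47.1 CPM with DMSO. These groups do not overlap either, but the log2 fold change of -0.29 ± 0.12 (SE) was not called (adjusted p = 0.0618). It was called in 12 of 29 alternatives, with adjusted p of 0.000533 to 0.191. At 6 h the log2 fold change was -0.08 ± 0.12 (adjusted p = 0.83), with 41.0, 41.7 and 32.3 CPM with PRT3789 overlapping 49.4, 35.8 and 36.5 CPM with DMSO.

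Relative to DMSO of the same time, YAP1 and WWTR1 differed in opposite directions at 48 and 72 h, and so did their balance. WWTR1 averaged 38.3, 39.4 and 35.9 CPM with PRT3789 at 6, 48 and 72 h. In DMSO it averaged 40.6, 48.1 and 52.1 CPM at these times. Per length, YAP1 exceeded WWTR1 5.06 ± 0.30-fold with PRT3789 and 4.68 ± 0.12-fold with DMSO at 6 h. The ratio was 7.87 ± 0.12 with PRT3789 and 4.22 ± 0.13 with DMSO at 48 h, and 8.23 ± 0.77 with PRT3789 and 4.50 ± 0.20 with DMSO at 72 h. The lowest PRT3789 library of 48 and 72 h had a ratio of 7.70, and the highest DMSO library of any time 4.82. The sum of the pair was 69.3 ± 1.38 CPM per kb with PRT3789 and 49.9 ± 5.06 CPM per kb with DMSO at 48 h, and 65.4 ± 2.78 CPM per kb with PRT3789 and 56.9 ± 2.21 CPM per kb with DMSO at 72 h.

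Among the vestigial-like cofactors, VGLL2 rose most. Its gene spans chr6:117265558-117273630. At 6 h VGLL2 had 3.60, 3.08 and 4.39 CPM with PRT3789 (105, 87 and 126 counts) against 1.70, 2.18 and 1.89 CPM with DMSO (41, 52 and 40 counts). At 48 h it had 38.0, 39.7 and 40.1 CPM with PRT3789 against 4.10, 4.69 and 4.48 CPM with DMSO. At 72 h the values were 52.0, 50.2 and 51.1 CPM with PRT3789 against 4.82, 4.56 and 5.02 CPM with DMSO. No group pair overlaps, and the lowest PRT3789 library of 48 h stood far above every DMSO library. The log2 fold changes were 0.94 ± 0.13, 3.15 ± 0.10 and 3.41 ± 0.10 (SE), with adjusted p of 0.000218, 2.73e-13 and 6.66e-14 at 6, 48 and 72 h. The later calls held in all 29 alternatives; that at 6 h held in 27 of 28 and was lost when the 6 h libraries were fitted alone (adjusted p = 0.105, with 9.81e-07 to 0.105 over the alternatives).

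VGLL1, on the X chromosome at chrX:136532215-136556799, fell at each time. It had 25.7, 28.7 and 23.5 CPM with PRT3789 against 41.1, 42.1 and 38.2 CPM with DMSO at 6 h. At 48 h it had 17.1, 18.1 and 18 CPM with PRT3789 against 45.7, 48.0 and 43.3 CPM with DMSO, and at 72 h 14.7, 16.1 and 16.5 CPM with PRT3789 against 47.2, 40.3 and 41.0 CPM with DMSO. Every PRT3789 library lay below every DMSO library. The log2 fold changes were -0.64 ± 0.08, -1.36 ± 0.09 and -1.44 ± 0.09 (SE), with adjusted p of 0.000112, 9.05e-10 and 3.77e-10. Of these calls only that at 6 h was lost in any alternative, with the 6 h libraries fitted alone (adjusted p = 0.0526, with 2.54e-10 to 0.0526 over 28 alternatives).

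VGLL4 averaged 80.4 ± 2.60 CPM with PRT3789 and 64.7 ± 3.25 CPM with DMSO at 48 h, and 82.0 ± 2.94 CPM with PRT3789 and 64.9 ± 2.28 CPM with DMSO at 72 h. Neither pair overlaps, and the log2 fold changes of 0.31 ± 0.07 and 0.34 ± 0.07 (SE; adjusted p = 0.00115 and 0.00051) were called in all 29 alternatives each. At 6 h VGLL4 averaged 66.8 ± 2.51 CPM with PRT3789 and 60.7 ± 5.11 CPM with DMSO and was not called (0.14 ± 0.07, adjusted p = 0.36). VGLL3 was not called at any time, and its groups overlapped at all 3, from 10.3 to 20.1 CPM over the PRT3789 libraries and 10.2 to 23.2 CPM over the DMSO libraries. The 95% confidence intervals of its log2 fold change were wide, -0.45 to 0.44 at 6 h, -0.19 to 0.67 at 48 h and -0.51 to 0.33 at 72 h.

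The makeup of the VGLL family was thus exchanged, while its sum differed less at 48 and 72 h. Per length, VGLL1 made up 52.4 ± 2.57% of the summed VGLL level with PRT3789 at 6 h, 27.7 ± 0.25% at 48 h and 22.9 ± 0.78% at 72 h. In DMSO its share was 66.1 ± 0.84% at 6 h, 66.0 ± 1.11% at 48 h and 63.7 ± 1.43% at 72 h. VGLL2 held 3.85 ± 0.88% with PRT3789 and 1.61 ± 0.17% with DMSO at 6 h, 31.4 ± 0.42% with PRT3789 and 3.28 ± 0.18% with DMSO at 48 h, and 38.1 ± 1.42% with PRT3789 and 3.67 ± 0.26% with DMSO at 72 h. With PRT3789 at 72 h it was the highest VGLL gene per length, just above VGLL4 with 36.1 ± 0.45%. This order depends on the division by length. Undivided, VGLL4 had 82.0 ± 2.94 CPM and VGLL2 51.1 ± 0.88 CPM with PRT3789 at 72 h. In DMSO at 72 h VGLL4 had 64.9 ± 2.28 CPM and VGLL1 42.8 ± 3.79 CPM. The family summed to 43.3 ± 2.51 CPM per kb with PRT3789 and 53.5 ± 2.96 CPM per kb with DMSO at 6 h, to 56.0 ± 1.54 CPM per kb with PRT3789 and 60.4 ± 2.34 CPM per kb with DMSO at 48 h, and to 60.2 ± 1.43 CPM per kb with PRT3789 and 58.7 ± 3.89 CPM per kb with DMSO at 72 h. Set against the TEAD sum, VGLL transcripts amounted to 0.512 ± 0.009 with PRT3789 and 0.728 ± 0.061 with DMSO at 72 h, and to 0.567 ± 0.017 with PRT3789 and 0.798 ± 0.043 with DMSO at 6 h. These ratios too are given without a test.

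**Figure D3:**
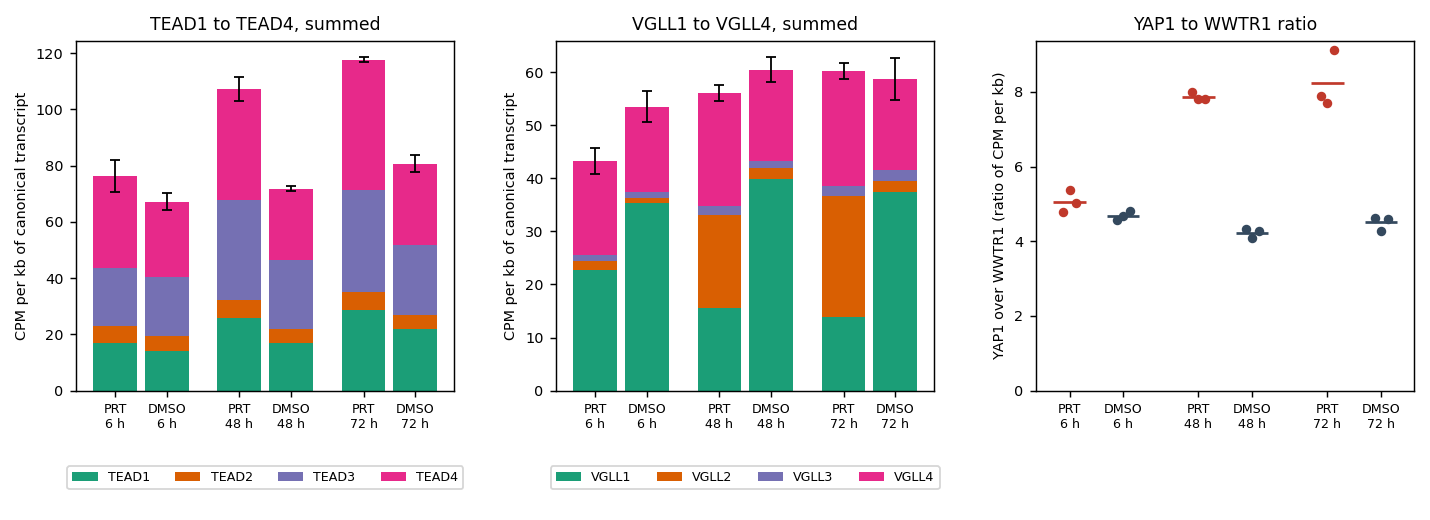
Mean level per length (CPM per kb of canonical transcript) of the TEAD and VGLL genes stacked by gene in each group, with the SD of the sum over 3 libraries, and the ratio of YAP1 to WWTR1 in each library with its mean. With PRT3789 at 72 h, VGLL2 fills 38.1% and VGLL1 22.9% of the VGLL bar, while in DMSO VGLL1 fills 63.7% and VGLL2 3.67%.

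For some of these genes the effect of PRT3789 at 48 h differed from that at 6 h. For 4 of the 10 genes the log2 effect was higher at 48 h than at 6 h, and for 1 it was lower, where 8.83% of all tested genes were called higher and 10.4% lower in this interaction test (19.2% either way). VGLL2 changed by 2.21 ± 0.17 (adjusted p = 6.37e-08), YAP1 by 0.57 ± 0.16 (adjusted p = 0.0191), TEAD3 by 0.55 ± 0.09 (adjusted p = 0.000396), TEAD4 by 0.33 ± 0.10 (adjusted p = 0.0236) and VGLL1 by -0.72 ± 0.12 (SE; adjusted p = 0.000298). The changes of VGLL2, VGLL1 and TEAD3 held in all 27 alternatives. Fitting each time apart cannot give this comparison and is not among the 27, all of which share the spread over times. That of TEAD4 was lost in 7 (adjusted p 0.0157 to 0.0918) and that of YAP1 in 4 (0.00106 to 0.0737), each a fit without 1 library except 1 for TEAD4 without the filter. The count of 5 was 3 without the third PRT3789 library of 6 h, the first PRT3789 library of 48 h or the second DMSO library of 48 h. Between 48 and 72 h the effect was called different for none of the 10, and for 0% of the 16291 tested genes, by the edgeR quasi-likelihood test. Of the 10, 0 had an unadjusted p under 0.05 and 0 were called by DESeq2 or limma-voom, while over all genes 1476 had such a p, DESeq2 called 103 and limma-voom 0. VGLL2 came closest to a further change, with 0.26 ± 0.14 (SE, adjusted p = 0.586; 95% confidence interval -0.03 to 0.56).

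In DMSO cells culture time went with a change in a few of these genes. TEAD3 and VGLL2 were called higher at 48 h than at 6 h in DMSO and 0 of the 10 were lower (also 0 by DESeq2, by limma-voom and at an unadjusted p under 0.05), where 17.1% of all tested genes were called higher and 20.1% lower (37.2% either way). VGLL2 in DMSO was 2.30-fold higher at 48 h than at 6 h (log2 1.20 ± 0.13 SE, adjusted p = 2.18e-06), in the direction of its response to PRT3789. The DMSO rise of TEAD3 was 0.23 ± 0.07 (adjusted p = 0.0132), and it was lost without the first DMSO library of 48 h (adjusted p = 0.064, with 0.00163 to 0.064 over 27 alternatives). Without the first DMSO library of 6 h, 6 of the 10 were called higher at 48 h than at 6 h in DMSO, while over all tested genes 3791 were called higher in that fit, against 2781 with the library. Between 48 and 72 h in DMSO 0 of the 10 were called by edgeR, DESeq2 or limma-voom, 3 had an unadjusted p under 0.05 in edgeR, and 0.54% of all tested genes were called. Without the 6 h libraries 3 were called higher at 72 h than at 48 h in DMSO (TEAD1, YAP1 and VGLL3), while over all tested genes the count went up to 3035, against 88 with those libraries. The PRT3789 and DMSO comparisons share the DMSO libraries.

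Ordered by mean level over the 6 groups, the genes fell into distinct patterns. TEAD3, VGLL4 and YAP1 had their highest levels in the PRT3789 groups of 48 and 72 h, whose libraries overlapped each other and none of the groups below. TEAD1, TEAD4 and VGLL2 had the PRT3789 groups of 72 and 48 h at the top, each apart from the next. For VGLL1 the order ran from PRT3789 at 72 h upward through PRT3789 at 48 h and PRT3789 at 6 h, each apart from the next, to the DMSO groups, which overlapped among themselves from 6 to 72 to 48 h. WWTR1 ran from 35.9 ± 4.16 CPM in PRT3789 at 72 h to 52.1 ± 1.09 CPM in DMSO at 72 h, with each group overlapping its neighbour in the order.

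At 6 h part of the spread between libraries went with transcript length, in opposite directions within each group. Over 10893 genes, Spearman's rho between transcript length and a gene's deviation in a library was 0.397, 0.595 and -0.608 in the PRT3789 libraries of 6 h and 0.616, -0.474 and -0.589 in the DMSO libraries of 6 h. At 48 h it was 0.308, 0.189 and 0.313 with PRT3789, against 0.0127, -0.406 and -0.313 with DMSO. The long transcripts TEAD1 (9417 bases), VGLL3 (10438 bases), YAP1 (5401 bases) and WWTR1 (5037 bases) spread most within the 6 h groups apart from VGLL2, while VGLL1 (1144 bases), TEAD4 (1710 bases) and TEAD3 (2986 bases) spread less. At 48 h every PRT3789 library thus had a higher rho than every DMSO library. A length trend of the libraries and an effect of PRT3789 on long transcripts cannot be told apart there. With this trend removed, the effect of PRT3789 at 48 h was 0.42 for TEAD1 and 0.50 for YAP1, still called, and -0.38 for WWTR1, then called (adjusted p = 0.000533). At 6 h the calls of TEAD4, VGLL1 and VGLL2 stayed past the threshold with it removed.

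**Figure D4:**
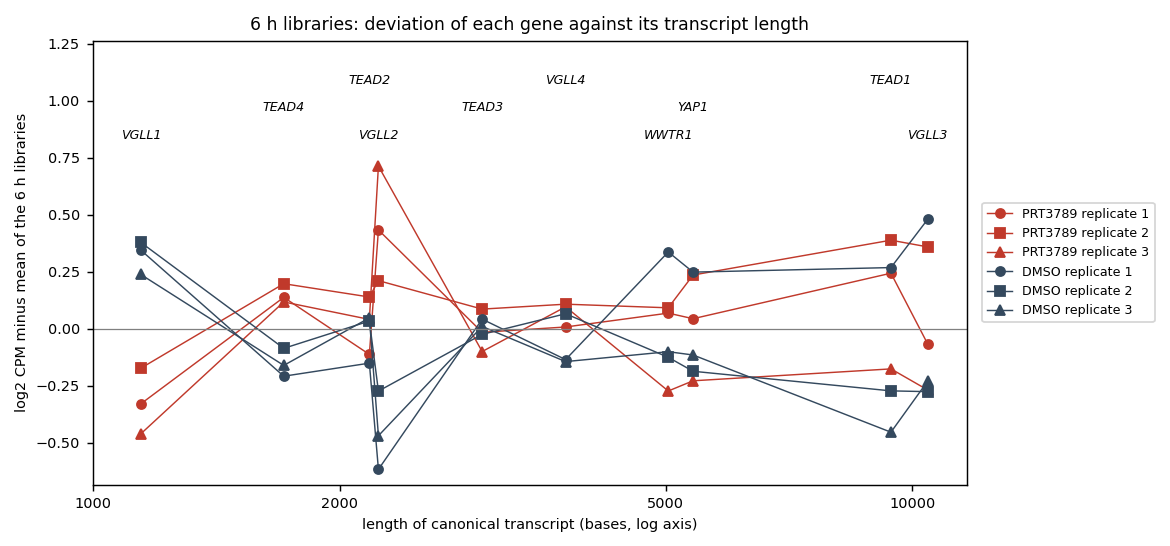
Deviation of log2 CPM from the mean of the 6 libraries of 6 h for each gene, placed by the length of its canonical transcript (log axis), with 1 line for each library. The first DMSO library lies above 0 and the other DMSO libraries lie below 0 for TEAD1, YAP1, WWTR1 and VGLL3, while all 3 PRT3789 libraries lie below all 3 DMSO libraries for VGLL1.

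The known targets of YAP and TEAD were read from a list of 22 genes, of which 21 were tested. At 6 h 0 were called higher by edgeR, DESeq2 or limma-voom (1 at an unadjusted edgeR p under 0.05) and 6 were lower; 6 were higher and 10 lower at 48 h; and 5 were higher and 14 lower at 72 h. Over all tested genes 1.28% were higher and 3.04% lower at 6 h, 21.2% higher and 20.9% lower at 48 h, and 21.3% higher and 22% lower at 72 h. Their median log2 fold change was -0.14, -0.38 and -0.55, where that of all tested genes was -0.01, 0.01 and 0.01. At 48 and 72 h most of the called targets were lower, while YAP1 and the 4 TEAD genes were called higher. At 6 h all 6 called targets were lower, and of YAP1 and the TEAD genes TEAD4 alone was called. These calls are against DMSO cells of the same time, in which the targets rose with culture time. Within DMSO, edgeR called 14 of the 21 higher and 0 lower at 48 h than at 6 h (1 lower at an unadjusted p under 0.05). The median log2 fold change was 0.59, and 17.1% of all tested genes were called higher and 20.1% lower. The list was chosen with earlier results of these data known, and no test of the list was made. CCN2, a secreted matricellular protein often used as a YAP readout, had 171.9, 174.0 and 166.1 CPM with PRT3789 against 566.9, 517.1 and 508.3 CPM with DMSO at 72 h (log2 fold change -1.64 ± 0.07 SE, adjusted p = 8.63e-12). F3, the coagulation tissue factor, had 43.7, 43.0 and 40.8 CPM with PRT3789 against 149.1, 146.3 and 140.3 CPM with DMSO at that time (-1.77 ± 0.06, adjusted p = 5.18e-13). Both lay far apart between the groups.

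IGFBP3, a binding protein of insulin-like growth factors, fell by 1.45 ± 0.08 at 72 h (adjusted p = 7.9e-11), and FJX1, the human counterpart of the fly kinase four-jointed, by 1.37 ± 0.10 (SE, adjusted p = 6.1e-09). Against this direction, GADD45A, a stress-responsive growth arrest gene, had 183.1, 181.6 and 201.9 CPM with PRT3789 against 81.1, 78.0 and 75.8 CPM with DMSO at 72 h (1.27 ± 0.09, adjusted p = 2.32e-09). At 6 h GADD45A had been lower in PRT3789, with a log2 fold change of -0.49, a call that was lost with the 6 h libraries fitted alone (adjusted p = 0.218, the highest over 28 alternatives, the lowest 4.22e-06). Of the other genes named at 6 h, AMOTL2, a junctional binder of YAP, fell by 0.61 ± 0.09 (adjusted p = 0.000378) and ANKRD1, a nuclear ankyrin protein, by 0.59 ± 0.11 (SE, adjusted p = 0.00199). Both of these calls were lost when the 6 h libraries were fitted alone (adjusted p = 0.15 and 0.145, the highest over 28 alternatives each, with lowest values of 1.58e-08 and 9.53e-06). CCN2 averaged 68.6 CPM at 6 h, 129.3 CPM at 48 h and 170.7 CPM at 72 h with PRT3789, and 90.6, 345.8 and 530.8 CPM with DMSO at the same times.

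The Hippo kinases and adaptors were called at 48 and 72 h no more often than tested genes at large, of which 42.1% and 43.4% were called. Of 19 Hippo kinases and adaptors, 0 were called at 6 h by edgeR, DESeq2 or limma-voom (3 at an unadjusted edgeR p under 0.05, and 1 called without the first DMSO library of 6 h), 5 were higher and 2 lower at 48 h, and 3 were higher and 4 lower at 72 h, with median log2 fold changes of 0.01, 0.12 and -0.08. LATS2, a kinase that phosphorylates YAP and TAZ and is itself on the target list, had 264.3, 274.0 and 251.5 CPM with PRT3789 against 158.4, 153.2 and 169.5 CPM with DMSO at 72 h (0.72 ± 0.15 SE, adjusted p = 0.000692). TNIK, a MAP4K-family kinase, had 6.42, 6.60 and 6.61 CPM with PRT3789 against 17.7, 17.5 and 18.7 CPM with DMSO (-1.46 ± 0.13, adjusted p = 5.29e-08). In both cases the groups lie apart. TAOK3, a kinase upstream of the Hippo kinases, rose by 0.78 ± 0.12 (adjusted p = 3.5e-05) and SAV1, the scaffold of STK3 and STK4, fell by 0.44 ± 0.06 (SE, adjusted p = 1.89e-05) at 72 h.

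Of 30 upstream and junction regulators, 28 were tested: 2 were called higher and 4 lower at 6 h, 7 higher and 7 lower at 48 h, and 6 higher and 13 lower at 72 h, with median log2 fold changes of 0.01, 0.07 and -0.19. Over all tested genes 4.33% were called at 6 h, 42.1% at 48 h and 43.4% at 72 h, with 22% lower at 72 h. FAT4, an atypical cadherin placed upstream of the pathway, had 213.3, 232.2 and 175.6 CPM with PRT3789 against 39.3, 41.8 and 43.5 CPM with DMSO at 72 h (2.32 ± 0.17 SE, adjusted p = 5.08e-09). RASSF5, a binder of STK3 and STK4, had 5.38, 4.42 and 5.01 CPM with PRT3789 against 24.8, 22.7 and 23.7 CPM with DMSO (-2.26 ± 0.14, adjusted p = 9.08e-10). WWC1 (KIBRA), a scaffold that promotes LATS activity, fell by 0.96 ± 0.09 (SE, adjusted p = 1.04e-07). Of the 18 genes of STRIPAK, the phosphatase complex that counters STK3 and STK4, 17 were tested; 0 were called at 6 h by edgeR, DESeq2 or limma-voom (1 at an unadjusted edgeR p under 0.05), 2 were higher and 3 lower at 48 h, and 5 were higher and 3 lower at 72 h, with median log2 fold changes of -0.004, 0.06 and 0.03. These counts stand beside the same shares of 42.1% at 48 h and 43.4% at 72 h over all tested genes. The 8 calls at 72 h were 5 without the first DMSO library of 72 h. Its largest named change was in STRIP2, a low-level scaffold gene, with -1.60 ± 0.21 (SE, adjusted p = 8.4e-06) at 72 h.

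Among 22 nuclear factors that share sites or partners with YAP, TAZ or TEAD, 2 were higher and 3 lower at 6 h, 7 higher and 4 lower at 48 h, and 6 higher and 5 lower at 72 h, with median log2 fold changes of 0.14, 0.11 and 0.01. With 11 of 22 called at 48 h and at 72 h, the list was near the 42.1% and 43.4% called over all tested genes; at 6 h 5 of 22 were called, against 4.33%. The 5 calls at 6 h were 9 without the first DMSO library of 6 h and 3 without the third. SMAD3, the TGF-beta signal transducer, had 20.4, 19.5 and 17.8 CPM with PRT3789 against 73.7, 77.1 and 77.8 CPM with DMSO at 72 h (-1.99 ± 0.10 SE, adjusted p = 2.92e-11). FOSL1, an AP-1 subunit, fell by 2.03 ± 0.20 (adjusted p = 1.95e-07), RUNX2, a runt-domain factor, by 3.0 ± 0.18 (adjusted p = 5.23e-10), and TFAP2C, an AP-2 factor, by 0.95 ± 0.13 (SE, adjusted p = 8.48e-06). SMAD3 and TFAP2C were already lower at 6 h, by 0.77 ± 0.09 and 0.95 ± 0.13 on the log2 scale (adjusted p = 5.12e-05 and 0.000133). The TFAP2C call at 6 h was lost with those libraries fitted alone (adjusted p = 0.056, the highest over 28 alternatives, the lowest 1.76e-09).

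**Figure D5:**
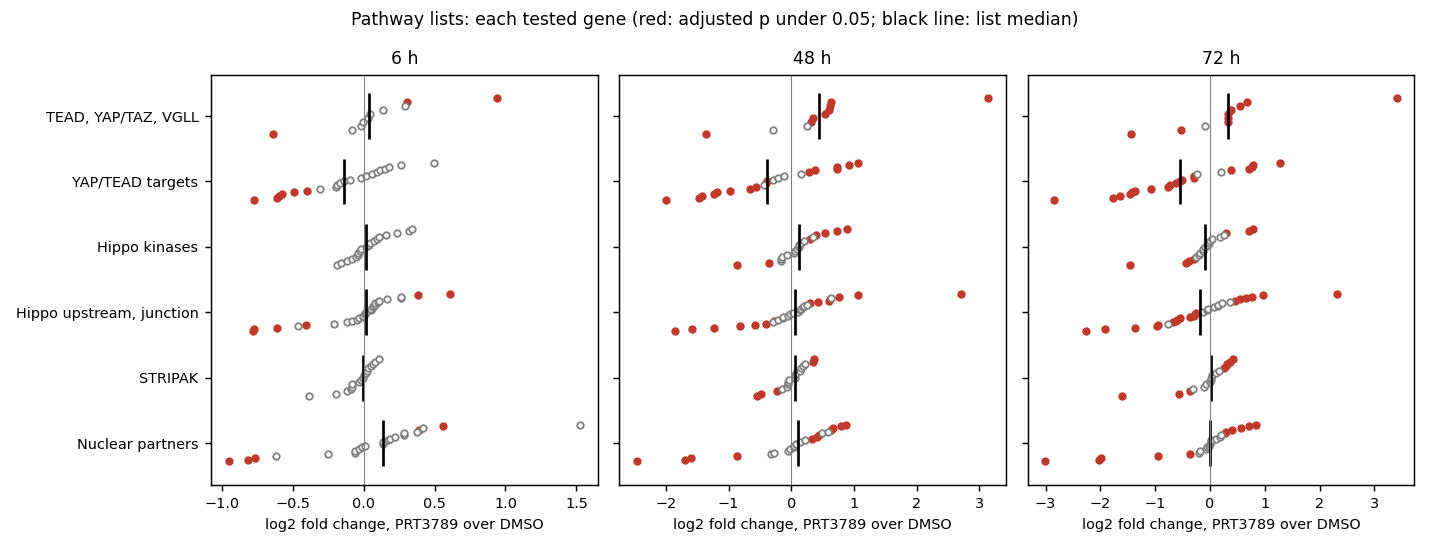
Log2 fold change of PRT3789 over DMSO for every tested gene of the TEAD, YAP/TAZ and VGLL group and of the 5 pathway lists at 6, 48 and 72 h; red points have an adjusted p under 0.05, black lines are medians and the horizontal scales differ. At 72 h the median is 0.33 for the TEAD, YAP/TAZ and VGLL genes and -0.55 for the YAP/TEAD targets.

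Over the 18 libraries, the genes whose log2 CPM followed VGLL2 most closely among 11058 genes with a mean of at least 5 CPM were CEP112 (Pearson r = 0.993), GPR155 (0.993), ADM (0.992) and NUDT18 (0.991). ADM, which encodes adrenomedullin, averaged 204.9 CPM with PRT3789 and 36.6 CPM with DMSO at 72 h. VGLL1 was followed most closely by VPS37C (0.991), CXXC5 (0.988), FGFR2 (0.986) and BCAR3 (0.985). FGFR2, a fibroblast growth factor receptor, averaged 13.6 CPM with PRT3789 and 116.7 CPM with DMSO at 72 h. These points share the treatment and time design, and 262 genes correlated with VGLL2 and 103 with VGLL1 above 0.95. Within the set, VGLL2 correlated with TEAD3 at 0.956 and with VGLL4 at 0.941, and VGLL1 with TEAD4 at -0.941. WWTR1 was near 0 with YAP1 (-0.01) and TEAD1 (0.05), but correlated at 0.665 with VGLL1, -0.663 with TEAD2 and -0.603 with TEAD4.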

How the data were processed

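Per the series' design text and the submitters' processing notes, the authors trimmed reads with Trim Galore, aligned them with STAR to GRCh38 (patch 14, annotation release 110) and quantified genes with RSEM in nf-core/rnaseq 3.17.0; versions of the single tools are not given in the sources used here. The deposited table holds the authors' expected counts per gene symbol, not normalized, and all its values were already whole numbers. The reads, 150 bp pairs, carry no molecular identifiers, so depth covers counting error only.

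Groups came from the labels. Genes were kept by filterByExpr, scaled by TMM and compared by the robust quasi-likelihood F test (edgeR 4.0.16 in R 4.3.3), 2-sided, in 1 model of all 18 libraries, with Benjamini-Hochberg adjustment over 16291 genes. The spread is thus shared over times, although the 6 h libraries varied more. CPM uses TMM-scaled totals; values per kb use the canonical transcript of GENCODE 44, known for 92.1% of tested genes. Alternatives were DESeq2 1.42.0, limma-voom (limma 3.58.1), other scalings and filters, a replicate block, each time fitted apart, each library left out, and, chosen after seeing the data, a transcript-length correction and a fit without the 6 h libraries. Replicate numbers were not used as pairs.

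The 10 genes and the pathway lists were chosen with earlier results of these data known, so lists are described by counts and medians without a set test. Beside the 10 genes, named were the 4 genes of smallest p per list and treatment comparison (some of them in the text), the 4 genes most correlated with the gene of largest rise and largest fall at 72 h, SMARCA2 and SMARCA4. FJX1, AMOTL2, PTPN14 and LATS2 are on 2 lists each.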

Additional observations from a re-analysis of the deposited data

Results flagged for a closer look

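For 5 of the 10 genes the log2 effect of PRT3789 over DMSO differed between 48 h and 6 h by the interaction test of edgeR. The effect at 48 h minus that at 6 h was 2.21 for VGLL2, 0.574 for YAP1, 0.554 for TEAD3, 0.332 for TEAD4 and -0.723 for VGLL1. At 6 h the effects themselves were 0.94 for VGLL2, 0.03 for YAP1, -0.02 for TEAD3, 0.30 for TEAD4 and -0.64 for VGLL1, and of these 5 genes YAP1 and TEAD3 were called at 48 h and not at 6 h.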

How the results depend on the processing

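The calls of VGLL1 and VGLL2 at 48 and 72 h held at an adjusted p under 0.05 in all 29 alternatives of other scaling, filter, tool, block or libraries, as did those of TEAD3, TEAD4 and VGLL4 at these times. With each time fitted apart, 0 of the 10 genes were called at 6 h, 1 of the upstream and junction regulators, 2 of the YAP/TEAD targets and 2 of the nuclear partners, and 11 of the Hippo kinases at 72 h (4 higher, 7 lower), where 147 of all tested genes were called at 6 h and 9089 at 72 h. Each fit apart estimates the spread from the libraries of its own time. Over all tested genes the shared fit called 705 at 6 h and 7069 at 72 h. At 48 h the fit apart called 7665, against 6853 in the shared fit. Over 11059 genes the median SD of log2 CPM was 0.149 with PRT3789 and 0.167 with DMSO at 6 h. It was 0.0644 to 0.119 in the groups of 48 and 72 h. Why the calls fell at 6 h was not tested. Requiring a 2-fold change left 0 of the 10 genes, 0 upstream regulators, 0 targets and 0 nuclear partners at 6 h. At 48 h it left 2 of the 10 genes (VGLL1 and VGLL2), 0 Hippo kinases, 5 upstream regulators, 0 STRIPAK genes, 6 targets and 3 nuclear partners. At 72 h it left 2 of the 10 genes, 1 Hippo kinase, 4 upstream regulators, 1 STRIPAK gene, 8 targets and 3 nuclear partners. Over all 16291 tested genes it left 167 at 6 h, 1807 at 48 h and 2084 at 72 h. Of the 10 it left VGLL2 alone for the change from 6 to 48 h, where it left 1056 of all tested genes. For DMSO at 48 h against 6 h VGLL2, with a log2 fold change of 1.20, passed the 2-fold limit, and TEAD3, with 0.23, did not. At an adjusted p under 0.01 the counts were 3 nuclear partners at 6 h, 3 STRIPAK genes at 48 h, 4 STRIPAK genes and 7 nuclear partners at 72 h, and 3 of the 10 for the change from 6 to 48 h. Over all tested genes they were 380 at 6 h, 4872 at 48 h, 5356 at 72 h and 1805 for the change from 6 to 48 h. For DMSO at 48 h against 6 h VGLL2 passed this stricter threshold and TEAD3 did not. Scaling by total counts gave 4 of the 10 for DMSO at 48 h against 6 h and moved the share of calls that were higher at 6 h to 44.3%, against 29.6% with TMM. For DMSO at 48 h against 6 h it called 5883 of all tested genes (3793 higher), against 6059 (2781 higher) with TMM. Removing the length trend gave 1 STRIPAK gene and 8 nuclear partners at 6 h and 9 STRIPAK genes at 48 h. Over all tested genes it gave 1067 calls at 6 h and 7317 at 48 h. It turned SMAD2 at 48 h to a log2 fold change of -0.36 (adjusted p = 0.0199), against 0.04 (adjusted p = 0.606) in the main fit. The cause was not tested. Without the 6 h libraries 3 of the 10 were called for DMSO at 72 h against 48 h.

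Leaving out each library in turn gave 2 to 4 of the 10 genes at 6 h, 7 to 9 at 48 h and 7 to 9 at 72 h, 3 to 5 for the change from 6 to 48 h, 1 to 6 for DMSO at 48 h against 6 h, 0 to 1 Hippo kinase and 3 to 9 nuclear partners at 6 h, and 5 to 9 STRIPAK genes at 72 h. All tested genes gave 476 to 1083 calls at 6 h, 5626 to 7652 at 48 h and 6176 to 7732 at 72 h. They gave 2475 to 3251 for the change from 6 to 48 h and 4534 to 7305 for DMSO at 48 h against 6 h. Over all tested genes the calls at 6 h were 705, and 1067 with the length trend removed and 1083 without the first DMSO library of 6 h. For the change from 48 to 72 h, 0 were called over all tested genes, and 103 by DESeq2, 46 with the length trend removed and 294 without the 6 h libraries. For DMSO at 72 h against 48 h the 88 calls became 554 with DESeq2, 279 with the length trend removed and 19 to 555 without 1 library.

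Libraries of equal number in the PRT3789 and DMSO groups of a time correlated at -0.237 to 0.338 in their deviations from the group means. With 3 libraries in a group, these values cannot settle whether the numbers mark pairs, and the labels do not say. With the replicate block, fitted either per time or across the groups, 3 of the 10 genes were called at 6 h, as without it, and 9 at 48 h, where WWTR1 was added. Over all tested genes the block per time called 655 at 6 h and 7196 at 48 h. The block across the groups called 672 and 6900, against 705 and 6853 without a block. For DMSO at 72 h against 48 h the block within each time called 169 of all tested genes.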
